A study of Homo sapiens with 8 samples.

Results

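The insulin-like growth factor (IGF) system was described through 10 genes chosen by name. They were the binding proteins IGFBP3, IGFBP4, IGFBP5, IGFBP6 and IGFBP7, the receptors IGF1R, IGF2R and INSR, and the receptor substrates IRS1 and IRS2, which made up 10 of the 23228 genes listed in the deposited counts. All were measured by RNA sequencing in ES2, a human ovarian cancer cell line grown in serum-supplemented medium. The groups were KDM1A knockout cells with LY500307 at 5 µM, KDM1A knockout cells with vehicle, control cells with LY500307 at 5 µM and control cells with vehicle, each after 48 h and each with 2 libraries. KDM1A is a histone demethylase, and LY500307 is an agonist of oestrogen receptor beta, the receptor whose tumour-suppressing action gives the series its title. How the knockout was made, whether its cells are a clone or a pool, and what the control cells carry are not stated in what was available. Duplicates are described as sequencing runs and no label speaks of separate cultures, so the p-values cover the spread between libraries, which may be technical.

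IGF1 and IGF2 are secreted growth factors that act through IGF1R, a receptor tyrosine kinase closely related to the insulin receptor INSR. Active receptors phosphorylate the docking proteins IRS1 and IRS2, which pass the signal to PI3K and AKT. In the circulation and around cells most IGF is held by binding proteins, which can block access to the receptor or prolong the life of the ligand, and proteases such as PAPPA release it again. IGF2R carries no kinase: it is the mannose 6-phosphate receptor that takes IGF2 and lysosomal enzymes into the cell.

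Library totals lay between 24348937 and 30131097 counts, and the 10 genes together held 0.0371% to 0.0493% of them. A floor of 3 counts corresponded to 0.1004 to 0.128 CPM, the count per TMM-adjusted library total. The targeted gene KDM1A had 72.0 and 71.6 CPM in knockout cells with LY500307 and 75.6 and 77.8 CPM in knockout cells with vehicle, against 238 and 241 CPM in control cells with LY500307 and 220.0 and 219 CPM in control cells with vehicle, so the libraries followed their labels although the transcript was still counted. All 5 mesenchymal markers examined were above 1 CPM in every library, with sums of 10620 to 13540 CPM in knockout cells and 11090 to 12520 CPM in control cells, most of it VIM. Within that list FN1, CDH2 and ZEB2 were lower and VIM and ZEB1 higher in knockout cells in edgeR under both treatments, and FN1 averaged 890 CPM in knockout cells with vehicle, against 3422 CPM in control cells with vehicle. Of 6 epithelial markers, the keratins KRT7, KRT8 and KRT18 passed 1 CPM in every group, and the list summed to 501 to 538 CPM in knockout cells and 613 to 736 CPM in control cells. These keratins moved in different directions: with vehicle edgeR called KRT8 (-1.87) and KRT18 (-1.02) lower and KRT7 (0.50) higher in knockout cells (log2). Of 6 markers of ovarian carcinoma, PAX8 and WT1 passed 1 CPM, while MUC16 had at most 1 count and MSLN at most 2 counts in a library.

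Promoter sequences are shown for the 3 binding proteins that fell together in knockout cells and for which a sequence was at hand, and for IGF1R, which moved the other way. Each is the 250 bases before the transcription start, 5′ to 3′ on the gene's strand, from RefSeq on GRCh38.p14, where 9 of the 10 genes were matched. They lie at chr7:45921273-45921522 (IGFBP3, minus strand), chr17:40443200-40443449 (IGFBP4, plus strand), chr12:53097417-53097666 (IGFBP6, plus strand) and chr15:98648289-98648538 (IGF1R, plus strand). Capitals mark motifs found in a search of both strands. The GC box, bound by SP family factors, was searched as GGGCGG. The TATA box, which positions the polymerase, was searched as TATAAA. The E-box, bound by MYC and its relatives, was searched as CACGTG. The site of TEAD factors, which end the Hippo pathway, was searched as GGAATG. The site of FOXO factors, which AKT holds in check, was searched as TGTTTAC. The palindromic oestrogen response element with a spacer of 3 free bases was searched as well.
IGFBP3: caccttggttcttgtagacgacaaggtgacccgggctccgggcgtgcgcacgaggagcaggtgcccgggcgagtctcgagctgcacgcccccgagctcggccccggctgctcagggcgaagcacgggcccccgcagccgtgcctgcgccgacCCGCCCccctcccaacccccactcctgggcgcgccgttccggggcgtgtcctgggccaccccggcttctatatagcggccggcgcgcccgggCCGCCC
IGFBP4: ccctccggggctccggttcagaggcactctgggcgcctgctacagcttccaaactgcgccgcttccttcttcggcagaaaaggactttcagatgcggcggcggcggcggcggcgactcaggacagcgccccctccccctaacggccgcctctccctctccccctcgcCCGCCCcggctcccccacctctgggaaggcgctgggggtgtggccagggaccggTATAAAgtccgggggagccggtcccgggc
IGFBP6: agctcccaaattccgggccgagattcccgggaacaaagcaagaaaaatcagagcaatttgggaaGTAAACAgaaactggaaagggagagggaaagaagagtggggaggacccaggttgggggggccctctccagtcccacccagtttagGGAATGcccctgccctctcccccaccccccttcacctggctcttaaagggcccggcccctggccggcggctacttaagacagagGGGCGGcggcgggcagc
IGF1R: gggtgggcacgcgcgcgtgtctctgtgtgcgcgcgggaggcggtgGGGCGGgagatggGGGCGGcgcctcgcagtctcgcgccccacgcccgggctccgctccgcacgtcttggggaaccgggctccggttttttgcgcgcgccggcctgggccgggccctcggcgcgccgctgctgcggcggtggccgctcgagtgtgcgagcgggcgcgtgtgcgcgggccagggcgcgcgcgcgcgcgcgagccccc
IGFBP3 held 2 GC boxes, IGFBP4 held 1 GC box and a TATA box 24 bases before the start, and IGF1R held 2 GC boxes. IGFBP6 was the only 1 of these 4 with a TEAD site and a FOXO site, next to 1 GC box. None of the 4 windows held the oestrogen response element searched for. Over 35116 promoter windows of this length, the shares that held a motif were 42.6% for the GC box, 10.7% for the TATA box, 6.34% for the E-box, 11.9% for the TEAD site, 2.98% for the FOXO site and 0.0399% for the oestrogen response element. Among the 4 windows that of IGF1R was richest in G and C, with 81.2% G and C and 48 CpG dinucleotides, against medians of 58.0% and 11 over all windows. IGFBP3 followed at 76.0%, IGFBP4 at 71.6% and IGFBP6 at 61.2%. The promoters of the 4 genes therefore shared the GC box but not a common set of motifs, and a match is a description of letters, not of binding.

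The 4 expressed binding proteins fell in knockout cells, by amounts that ranged from a loss of nearly all counts for IGFBP7 to a level of 43.7% of that of control cells with vehicle for IGFBP6. IGF1R rose in the same cells, IRS1 fell modestly, and IRS2 did not pass the test in either treatment. With vehicle, edgeR called 6 of the 8 genes tested, 5 lower and 1 higher in knockout cells, where 64.0% of all genes tested were called, 33.3% lower and 30.7% higher. The share called was thus close to the background, and the size of the changes carries the description below.

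IGFBP7 encodes a secreted relative of the binding proteins with low affinity for IGF that is best known as a tumour suppressor and a vessel-associated matrix protein. It lies at chr4:57896939-57976551 on the minus strand (hg19). It had 0 and 2 counts in knockout cells with LY500307 and 0 and 1 counts in knockout cells with vehicle, against 429 and 369 counts in control cells with LY500307 and 337 and 328 counts in control cells with vehicle. Every knockout library was at or below the floor of 3 counts and every control library was far above it. The ratio of control to knockout cells was 774 with vehicle (95% counting interval 138 to 30620) and 389.5 with LY500307 (95% counting interval 107.5 to 3222), and these intervals cover counting error only. The edgeR adjusted p was 7.47e-22 with vehicle and 6.17e-22 with LY500307 (Benjamini-Hochberg). POLR2B, an RNA polymerase subunit gene that overlaps IGFBP7 on the opposite strand, changed by -0.10 (log2) with vehicle and -0.13 with LY500307 (edgeR Benjamini-Hochberg adjusted p = 0.061 and 0.0171). Whether the counting used strand is not stated in what was available, so reads from the overlap of IGFBP7 and POLR2B cannot be told apart.

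IGFBP3, the main carrier of IGF in blood and a growth inhibitor in many cell types, lies at chr7:45951844-45961473 on the minus strand (hg19). It had 1.73 and 1.71 CPM in knockout cells with LY500307 and 2.39 and 1.34 CPM in knockout cells with vehicle, against 51.8 and 51.9 CPM in control cells with LY500307 and 35.7 and 38.3 CPM in control cells with vehicle. The knockout libraries were all low and did not overlap the control libraries. With LY500307 the change was -4.91 ± 0.13 (log2, SE), which left 3.32% of the level of control cells (edgeR Benjamini-Hochberg adjusted p = 7.5e-27), and with vehicle 4.93% of that level remained.

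IGFBP4, a binding protein known mainly as an inhibitor of IGF action and as the classic substrate of PAPPA, lies at chr17:38599702-38613977 on the plus strand (hg19). Its level was 2.06 and 1.82 CPM in knockout cells with LY500307 and 1.01 and 1.04 CPM in knockout cells with vehicle, against 13.4 and 15.8 CPM in control cells with LY500307 and 8.65 and 9.34 CPM in control cells with vehicle. No knockout library reached a control library. The fold change was -3.13 ± 0.19 with vehicle and -2.91 ± 0.16 with LY500307 (log2, SE; edgeR Benjamini-Hochberg adjusted p = 4.08e-16 and 1e-17).

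IGFBP6 prefers IGF2 over IGF1, and it lies at chr12:53491220-53496129 on the plus strand (hg19). It stood at 8.29 and 8.56 CPM in knockout cells with LY500307 and at 9.88 and 8.43 CPM in knockout cells with vehicle, against 23.8 and 22.6 CPM in control cells with LY500307 and 19.2 and 22.6 CPM in control cells with vehicle. The cell populations did not overlap, and the fall was smaller than that of the other 3 expressed binding proteins. It amounted to -1.20 ± 0.11 with vehicle and -1.46 ± 0.11 with LY500307 (log2, SE; edgeR Benjamini-Hochberg adjusted p = 1.26e-11 and 4.4e-14). IGFBP5, a binding protein held in the extracellular matrix (chr2:217536828-217560272, minus strand, hg19), had 0 counts in all 8 libraries, each of which allows at most the floor given above.

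**Figure D1:**
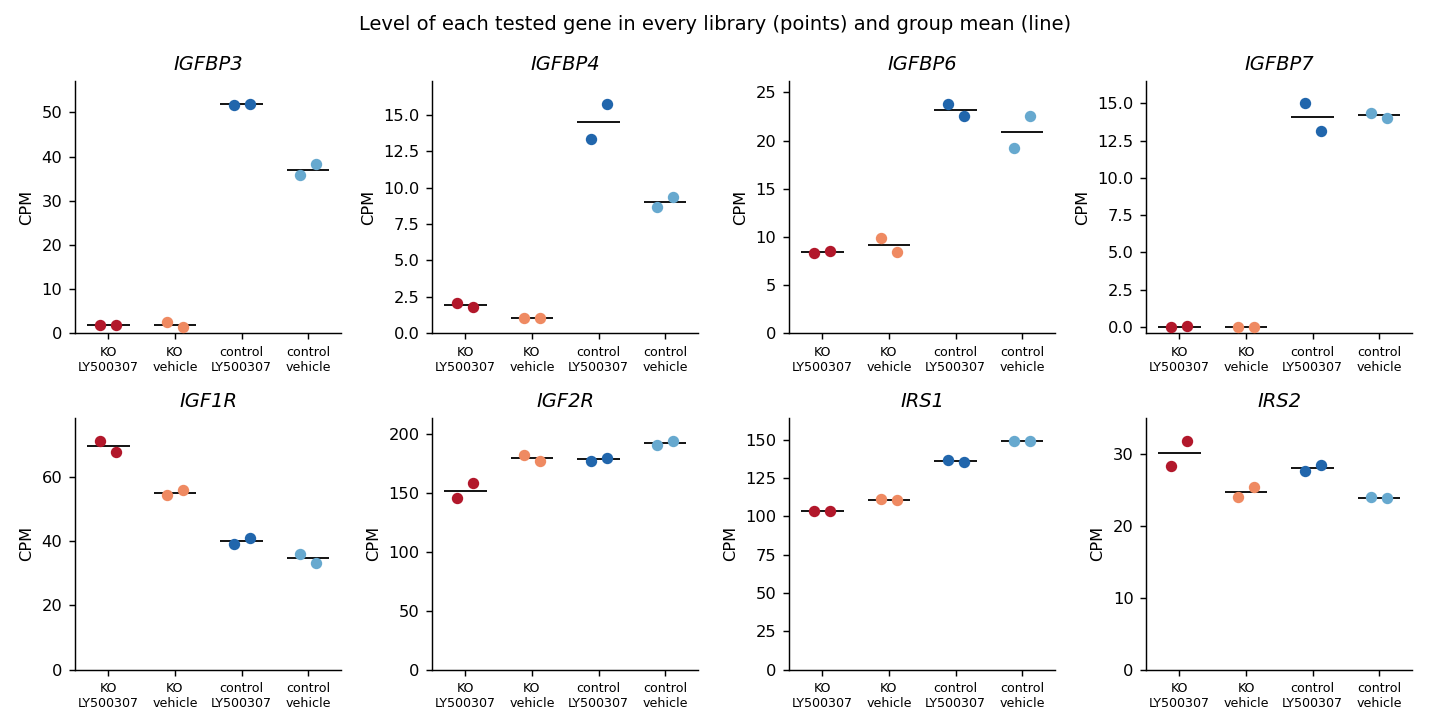
Level in CPM (linear axis) of the 8 tested genes in each library (points) with the mean of the 2 libraries of a group (line). IGFBP3, IGFBP4, IGFBP6 and IGFBP7 are low in every knockout library, IGF1R is high there, and the IRS2 libraries of knockout and control cells overlap within each treatment.

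Per kilobase of transcript, the summed level of IGFBP3, IGFBP4, IGFBP6 and IGFBP7 was 10.4 and 10.6 CPM per kilobase in knockout cells with LY500307 and 11.8 and 9.91 in knockout cells with vehicle, against 61.5 and 60.1 in control cells with LY500307 and 47.9 and 52.5 in control cells with vehicle. The make-up of that sum differed as well. IGFBP6 made up 84.6% to 89.9% of it in knockout libraries and 39.7% to 45.4% in control libraries. IGFBP3 made up 5.17% to 7.74% in knockout libraries and 27.9% to 33.1% in control libraries. On the same scale the binding proteins stood at 1.78 and 1.91 times the level of IGF1R in knockout cells with LY500307 and 2.66 and 2.17 times in knockout cells with vehicle, against 19.2 and 17.98 times in control cells with LY500307 and 16.3 and 19.3 times in control cells with vehicle. These sums and ratios are descriptions without a test, and RNA levels do not give secreted protein.

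Markers of other cell types that also express binding proteins moved with the genotype. The 5 endothelial markers summed to 26.7 to 32.9 CPM in knockout libraries and 83.1 to 105.5 CPM in control libraries, almost all of it CDH5. TEK, of the same list, went the other way at 19 and 12 counts in knockout cells with LY500307 and 9 and 11 counts in knockout cells with vehicle, against 4 and 6 counts in control cells with LY500307 and 1 and 1 counts in control cells with vehicle, while the defining markers PECAM1 and VWF had at most 5 and 4 counts in a library. The 5 fibroblast markers summed to 14.2 to 21.6 CPM in knockout libraries and 65.8 to 89.1 CPM in control libraries, almost all of it PDGFRA. LUM, of the same list, went the other way at 63 and 53 counts in knockout cells with LY500307 and 44 and 35 counts in knockout cells with vehicle, against 0 and 0 counts in control cells with LY500307 and 1 and 1 counts in control cells with vehicle, while DCN and COL1A2 had at most 3 counts in a library. The 5 haematopoietic markers summed to 61.7 to 73.7 CPM in knockout libraries and 96.5 to 111.8 CPM in control libraries, nearly all of it CD68, while PTPRC had at most 3 counts. The ovarian carcinoma markers, again PAX8 and WT1, summed to 10.99 to 12.54 CPM in knockout libraries and 2.80 to 4.86 CPM in control libraries. The part of these markers in the results was not tested beyond these values. All libraries came from the ES2 line, and no label names an admixture of other cell types. Within the line, fewer cells that express a gene and less RNA per cell cannot be told apart in bulk RNA.

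**Figure D2:**
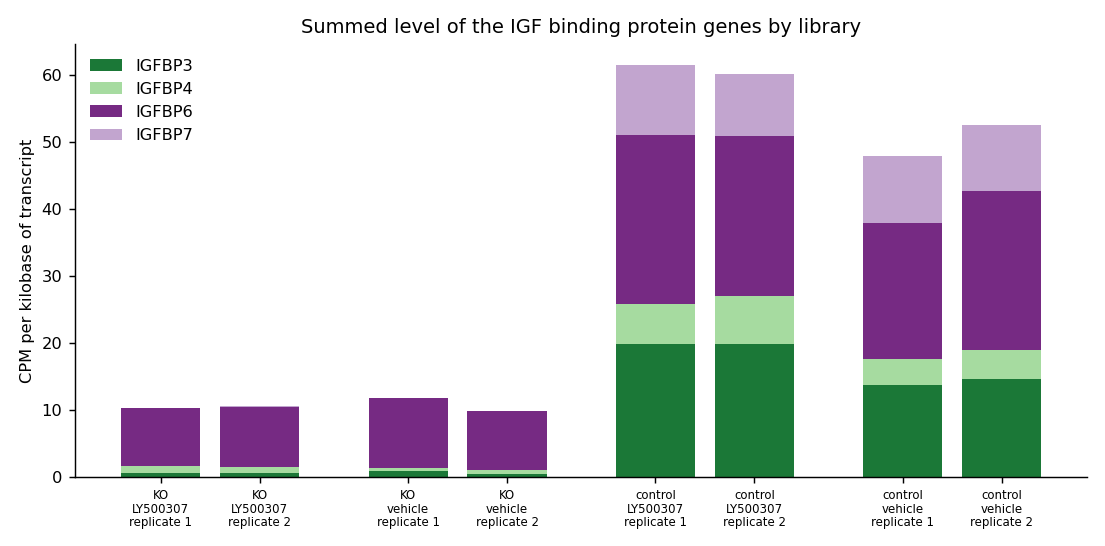
Stacked level of the 4 expressed IGF binding protein genes in each library, in CPM per kilobase of transcript. Knockout libraries sum to 9.91 to 11.8 and are mostly IGFBP6, and control libraries sum to 47.9 to 61.5 with IGFBP3 and IGFBP7 as further parts.

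IGF1R, the signalling receptor for IGF1 and IGF2, lies at chr15:99191768-99507759 on the plus strand (hg19). It had 71.2 and 67.7 CPM in knockout cells with LY500307 and 54.2 and 55.9 CPM in knockout cells with vehicle, against 39.1 and 40.9 CPM in control cells with LY500307 and 35.9 and 33.2 CPM in control cells with vehicle. The 4 groups formed a series without overlap, highest in knockout cells with LY500307 and lowest in control cells with vehicle. Knockout raised it by 0.67 ± 0.07 with vehicle and 0.79 ± 0.07 with LY500307 (log2, SE; edgeR Benjamini-Hochberg adjusted p = 2.36e-10 and 1.16e-12). Knockout cells with LY500307 carried 2.01 times the level of control cells with vehicle (edgeR Benjamini-Hochberg adjusted p = 5.12e-15).

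IGF2R, which clears IGF2 and sorts lysosomal enzymes, lies at chr6:160390114-160534539 on the plus strand (hg19). It had 146 and 158 CPM in knockout cells with LY500307 and 182 and 177 CPM in knockout cells with vehicle, against 177 and 179 CPM in control cells with LY500307 and 191 and 194 CPM in control cells with vehicle. Knockout cells with LY500307 were lowest and lay apart from the other 3 groups. With LY500307 knockout lowered it by -0.23 ± 0.05 (log2, SE; edgeR Benjamini-Hochberg adjusted p = 0.000107). With vehicle the change of -0.10 ± 0.05 had an edgeR Benjamini-Hochberg adjusted p of 0.0638, and its 95% interval was -0.20 to -0.01. The ratio of IGF2R to IGF1R, both per kilobase, was 1.78 and 2.03 in knockout cells with LY500307 and 2.91 and 2.75 in knockout cells with vehicle, against 3.94 and 3.81 in control cells with LY500307 and 4.62 and 5.08 in control cells with vehicle.

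INSR, the insulin receptor, lies at chr19:7112266-7294425 on the minus strand (hg19) and was barely counted. It had 0 and 3 counts in knockout cells with LY500307, 3 and 1 counts in knockout cells with vehicle, 9 and 3 counts in control cells with LY500307 and 3 and 2 counts in control cells with vehicle. It was left out of the main test for low counts, and no difference between groups was detectable at this depth.

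IRS1, the docking protein that links both receptors to PI3K, lies at chr2:227596028-227664536 on the minus strand (hg19). It had 103 and 104 CPM in knockout cells with LY500307 and 111 and 110.4 CPM in knockout cells with vehicle, against 137 and 136 CPM in control cells with LY500307 and 149 and 149 CPM in control cells with vehicle. Duplicates were close together and the 4 groups did not overlap. Knockout lowered IRS1 by -0.43 ± 0.05 with vehicle and -0.39 ± 0.05 with LY500307 (log2, SE; edgeR Benjamini-Hochberg adjusted p = 3.72e-09 and 1.9e-08).

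IRS2, the related docking protein at chr13:110405042-110438930 on the minus strand (hg19), passed the test for treatment in both populations but for genotype in neither treatment. It had 28.3 and 31.8 CPM in knockout cells with LY500307 and 24.0 and 25.3 CPM in knockout cells with vehicle, against 27.6 and 28.4 CPM in control cells with LY500307 and 24.0 and 23.8 CPM in control cells with vehicle. Knockout and control libraries overlapped within each treatment. The knockout difference was 0.04 with vehicle (95% interval -0.12 to 0.21) and 0.10 with LY500307 (95% interval -0.06 to 0.26), with edgeR Benjamini-Hochberg adjusted p of 0.663 and 0.271. Per kilobase, IRS1 exceeded IRS2 by 3.05 and 2.72 times in knockout cells with LY500307 and 3.87 and 3.64 times in knockout cells with vehicle, against 4.13 and 3.98 times in control cells with LY500307 and 5.19 and 5.22 times in control cells with vehicle.

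**Figure D3:**
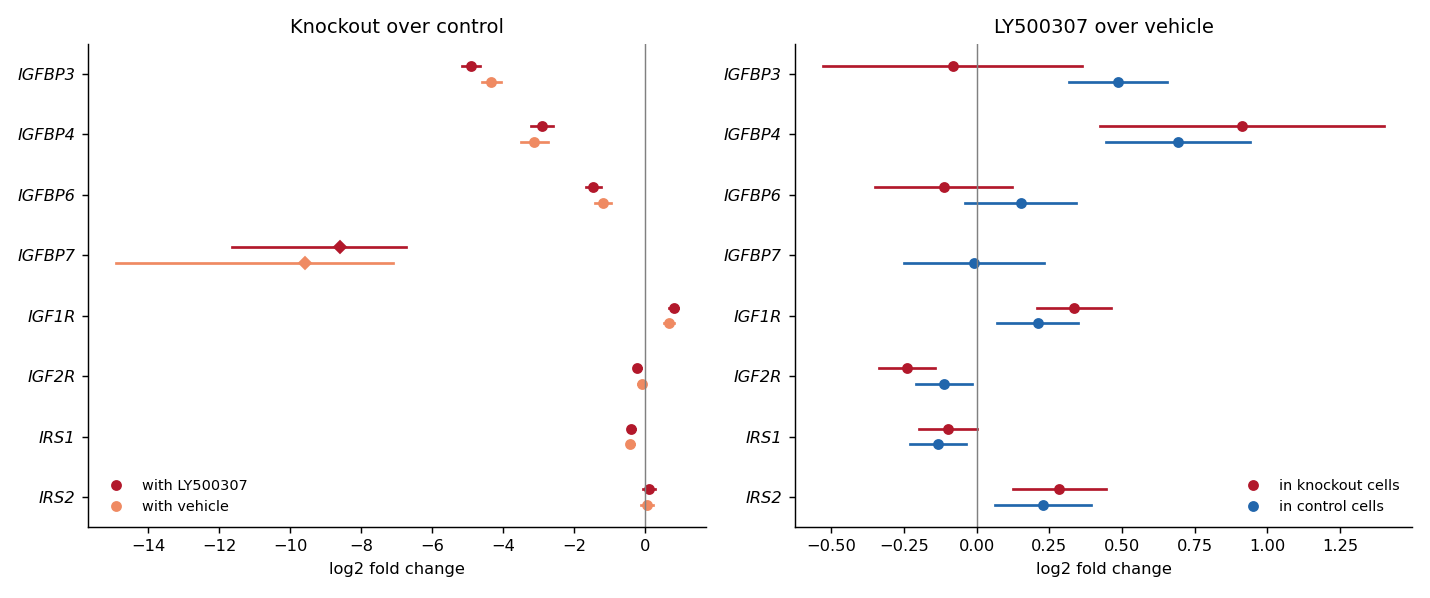
Log2 fold changes of the 8 tested genes with 95% intervals, for knockout over control under each treatment (left) and for LY500307 over vehicle in each cell population (right). Diamonds mark IGFBP7, given as the ratio of counts with its counting interval, and no value is drawn for its response in knockout cells, where it had at most 2 counts a library. On the left IGFBP3, IGFBP4, IGFBP6 and IGFBP7 lie below 0 and IGF1R above, and on the right IGFBP4, IGF1R and IRS2 lie above 0 in both populations.

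With LY500307 present, edgeR called 7 of the 8 genes tested between knockout and control cells, 6 lower and 1 higher in knockout cells, where 66.2% of all genes tested were called, 33.6% lower and 32.6% higher. The gene added to those called with vehicle was IGF2R. These 2 comparisons share no library.

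LY500307 was also compared with vehicle within each population. In control cells 5 of the 8 passed in edgeR, where 26.3% of all genes tested were called, 12.3% higher and 14.0% lower. Of the 5, 4 were higher with LY500307 and IRS1 was lower. IGFBP4 rose by 0.69 ± 0.13 and IGFBP3 by 0.49 ± 0.09 (log2, SE; edgeR Benjamini-Hochberg adjusted p = 0.0001 and 6.28e-05), and both calls held whichever of the 8 libraries was left out, with edgeR Benjamini-Hochberg adjusted p of at most 0.0118 and 0.00357. IRS2 (0.23 ± 0.08, adjusted p = 0.0422) and IGF1R (0.21 ± 0.07, adjusted p = 0.0269, edgeR) rose less, and IRS1 fell by -0.13 ± 0.05 (edgeR adjusted p = 0.0457). The last 3 calls lay near the threshold. None of them was kept in every edgeR fit that left out 1 library, and the IRS1 call was lost in each such fit. Over all alternatives the estimates kept their sign. They ranged from -0.139 to -0.06 for IRS1, 0.203 to 0.301 for IRS2 and 0.154 to 0.283 for IGF1R (log2). DESeq2 gave adjusted p of 0.0618 for IRS1 and 0.1 for IRS2, and the IRS1 call also missed the threshold in edgeR with library totals, with DESeq2 size factors and without the filter. IGFBP6 and IGFBP7 gave 0.15 (95% interval -0.04 to 0.34) and -0.01 (95% interval -0.25 to 0.23), with edgeR Benjamini-Hochberg adjusted p of 0.265 and 0.966. The control library with vehicle numbered 2 also held more counts of the epithelial markers EPCAM (50 against 20), CDH1 (31 against 10) and KRT19 (37 against 17) than its duplicate, and the part of this in the results was not tested. Without that library IGF1R rose by 0.154 (log2). Fewer of the 8 genes passed whichever of the libraries compared was left out, so the loss of calls was not particular to that library.

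In knockout cells LY500307 changed 4 of the 8 genes in edgeR, 3 higher and 1 lower, where 20.4% of all genes tested were called, 9.16% higher and 11.3% lower. IGFBP4 rose by 0.91 ± 0.25, IGF1R by 0.33 ± 0.06 and IRS2 by 0.29 ± 0.08, and IGF2R fell by -0.24 ± 0.05 (log2, SE; edgeR Benjamini-Hochberg adjusted p = 0.00774, 0.000274, 0.0117 and 0.000559). IGFBP3, at 1.73 and 1.71 CPM with LY500307 and 2.39 and 1.34 CPM with vehicle, gave -0.08 with a 95% interval of -0.53 to 0.36. The IGF1R and IGF2R calls were kept in all 8 edgeR fits that left out 1 library. The IGFBP4 call was lost without replicate 1 of knockout cells with LY500307 or replicate 2 of knockout cells with vehicle (edgeR adjusted p = 0.0655 and 0.0592), and the IRS2 call without replicate 2 of knockout cells with LY500307 or replicate 1 of knockout cells with vehicle (edgeR adjusted p = 0.183 and 0.113).

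Whether knockout altered the response to LY500307 was tested as the interaction. In edgeR 0 of the 8 genes passed and 1, IGFBP3, had an unadjusted p under 0.05, where 1.62% of all genes tested were called. DESeq2 likewise called 0 of 9 tested, with 1 at an unadjusted p under 0.05. The IGFBP3 interaction was -0.57 (95% interval -1.05 to -0.09; edgeR Benjamini-Hochberg adjusted p = 0.261). For IGF1R it was 0.12 (95% interval -0.07 to 0.31) and for IGFBP4 it was 0.22 (95% interval -0.33 to 0.77), so differences of these sizes between the populations could not be told from none.

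With knockout and LY500307 set together against control cells with vehicle, all 8 tested genes passed in edgeR, 2 higher and 6 lower, where 67.9% of all genes tested were called, 33.1% higher and 34.8% lower. IGF1R rose by 1.01 ± 0.07 and IRS2 by 0.33 ± 0.08, and IRS1 fell by -0.53 ± 0.05 and IGF2R by -0.34 ± 0.05 (log2, SE; edgeR Benjamini-Hochberg adjusted p = 5.12e-15, 0.000805, 2.89e-11 and 2.05e-07). This comparison shares its control libraries with the knockout comparison under vehicle, and it shares its knockout libraries with that under LY500307. Knockout cells with vehicle were also set against control cells with LY500307, to complete the order of the groups. There edgeR called 7 of the 8 genes, 1 higher and 6 lower in knockout cells, where 66.2% of all genes tested were called, 32.2% higher and 34.0% lower. IGF1R rose by 0.46 in this comparison and IRS2 fell by -0.18 (log2; edgeR Benjamini-Hochberg adjusted p = 2.88e-07 and 0.0498), and the IRS2 call was kept in 2 of the 8 fits that left out 1 library.

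From highest to lowest mean, IGF1R ran from knockout cells with LY500307 (69.4 CPM) through knockout cells with vehicle (55.0 CPM) and control cells with LY500307 (40.0 CPM) to control cells with vehicle (34.6 CPM), and each neighbour in that order differed in edgeR. IRS1 ran the other way, from control cells with vehicle (149 CPM) to knockout cells with LY500307 (103.5 CPM), and its lowest neighbours, the knockout groups, were not told apart. IGFBP3 and IGFBP4 were highest in control cells with LY500307 (51.8 and 14.6 CPM). The lowest group was knockout cells with LY500307 for IGFBP3 (1.72 CPM) and knockout cells with vehicle for IGFBP4 (1.02 CPM). For IGFBP6 and IGFBP7 the treatments were not told apart within either population. For IGF2R only the lowest group, knockout cells with LY500307 (152 CPM), differed from its neighbour in the order. IRS2 split into the LY500307 groups (30.04 CPM in knockout cells and 28.02 CPM in control cells) and the vehicle groups (24.65 CPM in knockout cells and 23.92 CPM in control cells).

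The ligands IGF1, IGF2 and INS had 0 counts in all 8 libraries, as had the insulin receptor relative INSRR and the binding protein relative IGFBPL1. Whether other genes overlap those of the ligands was not examined, so 0 counts do not show that their RNA was absent. IGFALS, the serum partner of IGFBP3, had at most 2 counts and IRS4 2 to 14 counts in a library. IGFBP2 had 0 to 7 counts in a library. IGFBP1, a binding protein controlled by insulin in liver and the neighbour of IGFBP3, had 0 and 0 counts in knockout cells with LY500307 and 0 and 1 counts in knockout cells with vehicle, against 23 and 26 counts in control cells with LY500307 and 16 and 19 counts in control cells with vehicle. With LY500307 it was at least 15.9-fold lower in knockout cells, with 3 counts over the group as the floor, and with vehicle the ratio of control to knockout cells was 40.7 (95% counting interval 6.85 to 1654).

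Proteases that cut binding proteins changed in both directions. Of 9 such genes and inhibitors, 8 were tested, and edgeR called 5 lower and 1 higher in knockout cells with vehicle (median -0.65, against -0.01 for all genes tested), where 33.3% of all genes tested were called lower and 30.7% higher. HTRA1, a secreted serine protease, fell to 0.225 and 0.314 CPM in knockout cells with LY500307 and 0.324 and 0.368 CPM in knockout cells with vehicle, against 9.58 and 9.17 CPM in control cells with LY500307 and 8.95 and 9.98 CPM in control cells with vehicle. PAPPA2, which cleaves IGFBP3 and IGFBP5, rose to 13.7 and 15.0 CPM in knockout cells with LY500307 and 14.0 and 14.1 CPM in knockout cells with vehicle, against 3.04 and 2.32 CPM in control cells with LY500307 and 2.05 and 2.13 CPM in control cells with vehicle. The membrane proteases ADAM9 and ADAM12 fell with vehicle by -0.71 and -0.92 (log2; edgeR Benjamini-Hochberg adjusted p = 5.83e-16 and 2.36e-15). PAPPA, the protease that cuts IGFBP4, responded to LY500307 in both populations, by 0.53 in knockout cells and 0.81 in control cells (log2; edgeR Benjamini-Hochberg adjusted p = 0.00111 and 5.5e-07). PAPPA was also lower in knockout cells within each treatment. With LY500307 it had 10.35 and 12.05 CPM in knockout cells, against 20.76 and 20.12 CPM in control cells. With vehicle it had 7.734 and 7.795 CPM in knockout cells, against 11.17 and 12.12 CPM in control cells.

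Among 15 receptor adaptors and negative regulators, edgeR called 9 lower and 1 higher in knockout cells with vehicle, with a median of -0.24, where 64.0% of all genes tested were called, 33.3% lower and 30.7% higher. The share called, with both directions pooled, was close to that background, while the share lower was above it and the share higher below it. GRB10, an adaptor that binds insulin and IGF1 receptors and dampens their signal, had 5 and 4 counts in knockout cells with LY500307 and 6 and 4 counts in knockout cells with vehicle, against 2172 and 2106 counts in control cells with LY500307 and 1557 and 1538 counts in control cells with vehicle. It fell by -8.46 with vehicle (log2; edgeR Benjamini-Hochberg adjusted p = 6.62e-31). SOCS3, a feedback inhibitor of cytokine and insulin signalling, fell by -3.84, and ENPP1, a membrane enzyme that can inhibit INSR, fell by -1.94 (log2, vehicle; edgeR Benjamini-Hochberg adjusted p = 8.38e-25 and 2.69e-23). With LY500307 in control cells 5 of the 15 rose and 1 fell, where 12.3% of all genes tested were called higher and 14.0% lower. The adaptor SH2B2 rose by 0.77 and the docking protein GAB2 by 0.47 (log2; edgeR Benjamini-Hochberg adjusted p = 0.0135 and 0.002), but DESeq2 called 1 of the 15 and between 2 and 5 rose in edgeR with 1 library left out.

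Of 25 genes of PI3K, AKT and mTOR signalling, edgeR called 13 lower and 6 higher in knockout cells with vehicle, with a median of -0.20, again beside 33.3% lower and 30.7% higher among all genes tested. INPPL1, a lipid phosphatase that removes a product of PI3K, rose by 1.06 and the PI3K subunit PIK3R2 by 0.85, and the AKT phosphatase PHLPP1 fell by -1.09 (log2; edgeR Benjamini-Hochberg adjusted p = 1.37e-19, 4.79e-16 and 3.62e-12). LY500307 lowered AKT1, the kinase downstream of IRS1 and IRS2, by -0.29 in knockout cells and -0.27 in control cells (log2; edgeR Benjamini-Hochberg adjusted p = 1.87e-05 and 4.38e-05).

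FOXO factors are switched off by AKT, and the RNA of a list of 12 of their known targets was examined. The activity of AKT or of FOXO factors was not measured, and the list was chosen with earlier results of these data known. In knockout cells with vehicle edgeR called 7 higher and 1 lower (median 0.28), where 30.7% of all genes tested were called higher and 33.3% lower. The 1 lower was TXNIP (-0.46, log2; edgeR Benjamini-Hochberg adjusted p = 1.15e-08). The list is a choice and does not hold IGFBP1, the binding protein controlled by insulin in liver. In knockout cells with vehicle IGFBP1 went the other way (-5.03, log2; edgeR Benjamini-Hochberg adjusted p = 8.96e-06). LY500307 raised 7 of the 12 and lowered 0 in knockout cells (median 0.34, against 0.01 for all genes tested), where 9.16% of all genes tested were called higher. It raised 7 and lowered 0 in control cells (median 0.49, against 0.01), where 12.3% of all genes tested were called higher. DESeq2 called 5 and 7 higher and 0 lower in these comparisons. KLHL24 stood at 34.1 and 35.3 CPM in knockout cells with LY500307 and 27.6 and 24.0 CPM in knockout cells with vehicle, against 13.6 and 12.9 CPM in control cells with LY500307 and 6.95 and 6.53 CPM in control cells with vehicle. FBXO32, a ubiquitin ligase subunit known from muscle wasting, stood at 72.1 and 64.3 CPM in knockout cells with LY500307 and 50.3 and 52.6 CPM in knockout cells with vehicle, against 33.0 and 33.5 CPM in control cells with LY500307 and 20.9 and 24.8 CPM in control cells with vehicle. Both genes formed a series of 4 groups without overlap, in the same order as IGF1R. Left-out libraries moved the number that rose with LY500307 between 5 and 7 in each population.

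**Figure D4:**
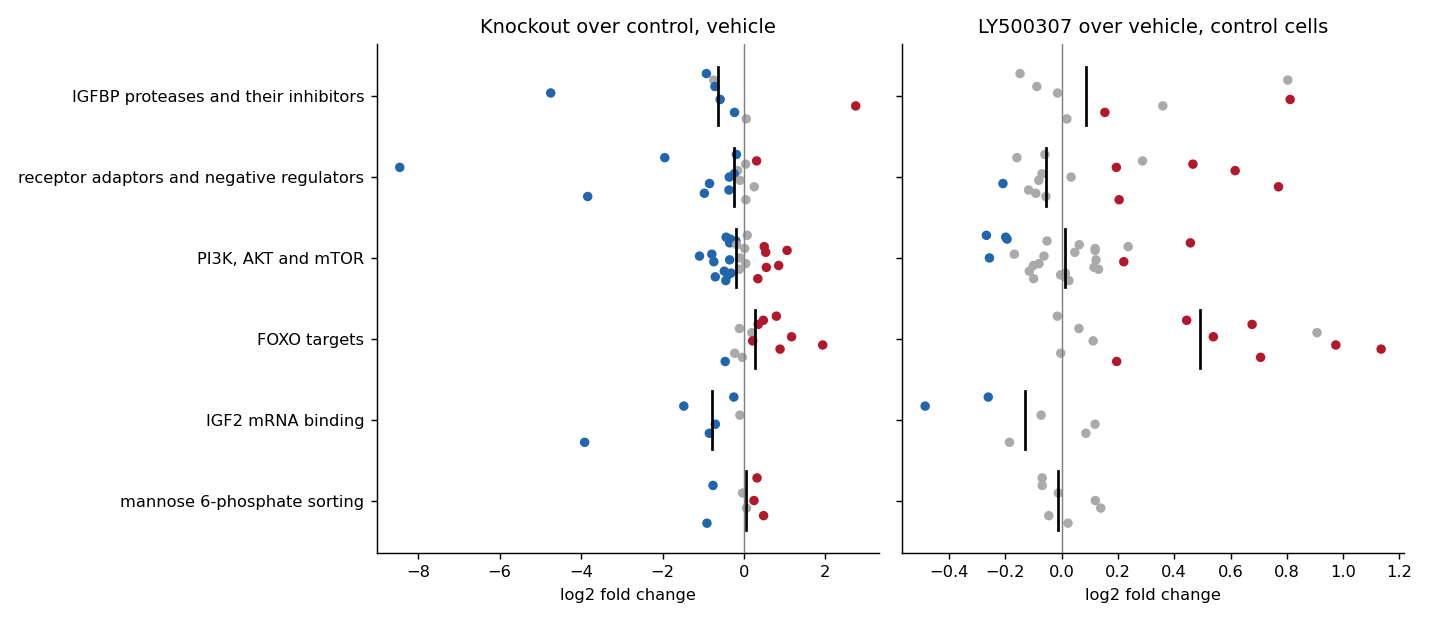
Log2 fold changes of the tested genes of 6 lists around IGF signalling, for knockout over control with vehicle (left) and LY500307 over vehicle in control cells (right). Red points are called higher, blue lower and grey not called, and lines mark list medians, which for FOXO targets lie at 0.28 on the left and 0.49 on the right.

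Genes linked to the IGF2 transcript comprise the RNA-binding proteins of the IGF2BP and LIN28 families and the HMGA chromatin factors upstream of them. Of 7 genes, 6 were tested and edgeR called 5 lower and 0 higher in knockout cells with vehicle, with a median of -0.78, where 33.3% of all genes tested were called lower. HMGA2 fell by -1.48, LIN28B by -3.91, IGF2BP3 by -0.85 and IGF2BP2 by -0.70 (log2; edgeR Benjamini-Hochberg adjusted p = 3.7e-23, 2.63e-15, 1.17e-14 and 5.68e-15). IGF2 itself had no counts, with the limit given above. Of 7 genes that tag or sort lysosomal enzymes alongside IGF2R, 3 were called higher and 2 lower, a share near the 64.0% of all genes tested that were called. M6PR, the small mannose 6-phosphate receptor, rose by 0.48 in knockout cells with vehicle while the adaptor GGA2 fell by -0.76 (log2; edgeR Benjamini-Hochberg adjusted p = 5.64e-11 and 5.32e-13).

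Most genes around IGFBP3 changed far less than IGFBP3 and IGFBP1. Of the 42 other tested genes with a start site within 5 Mb of that of IGFBP3, edgeR called 7 higher and 23 lower in knockout cells with vehicle, and their median was -0.16. Among all genes tested in that comparison, which is used for every window here, 30.7% were called higher and 33.3% lower. GRB10 also lies in the window of IGFBP3, with a start site 4899.7 kb from that of IGFBP3. So does ABCA13, at 2249.6 kb, which was called lower (-4.265, log2) and fell about as far as IGFBP3 (-4.343). The gap between IGFBP1 and IGFBP3 is 18.6 kb, and TNS3, the nearest tested gene on the other side at 1353.3 kb, changed by 0.16 (edgeR Benjamini-Hochberg adjusted p = 0.00443). Around IGFBP7 the median of 25 genes was -0.10, around IGFBP4 it was -0.11 over 157 genes, around IGFBP6 -0.05 over 176 genes and around IGF1R 0.08 over 19 genes. These medians hide large single changes. Around IGFBP7, 6 genes were called higher and 10 lower, with KIT (-8.0), RASL11B (-3.50), PDGFRA (-2.33) and HOPX (-2.21) the lowest and NMU (1.89) the highest (log2). IRS1 and IRS2 differed from most of their surroundings. Around IRS1, which fell, 25 of 38 genes were higher and 3 lower (median 0.30). Around IRS2, which did not pass the test, 22 of 31 genes were lower and 1 higher (median -0.50). One-sided surroundings were not particular to these 2. Around IGFBP5 37 of 48 genes were higher and 3 lower, and around INSR 98 of 176 were higher and 17 lower. Around IGF2R 2 of 28 were higher and 12 lower. No test was made of these neighbourhoods.

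**Figure D5:**
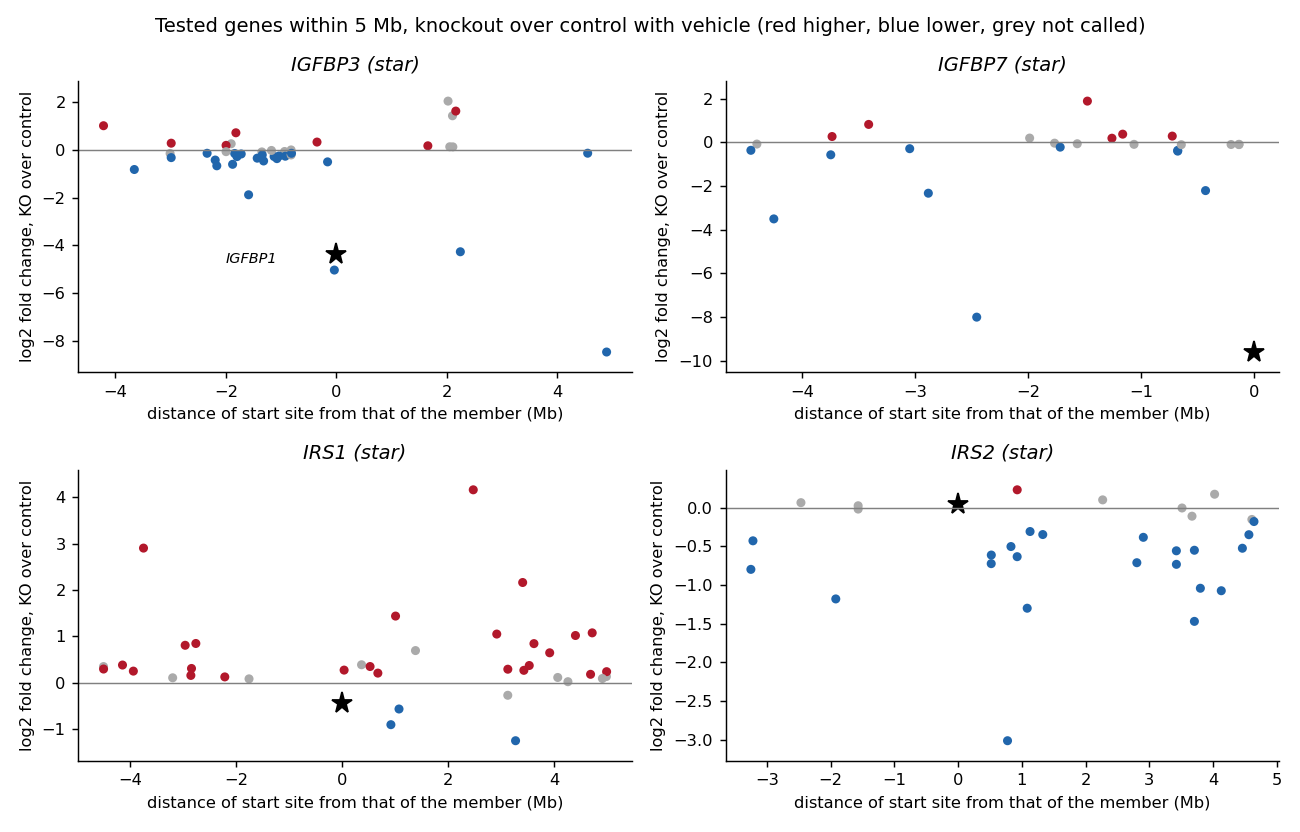
Log2 fold change in knockout over control cells with vehicle of tested genes within 5 Mb of IGFBP3, IGFBP7, IRS1 and IRS2 (stars, IGFBP7 as its ratio of counts), by the distance of their start sites, with larger coordinates to the right. Genes around IRS1 are mostly higher (red) and genes around IRS2 mostly lower (blue), while the stars lie on the other side of them or near 0.

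The genes whose levels over the 8 libraries ran closest to those of a binding protein were sought among the 10414 tested genes that averaged 5 CPM or more, by the root mean square difference of log2 CPM centred on each gene's mean. For IGFBP7 they were PTPRN2 (0.24), PNMA2 (0.28) and CHRNA1 (0.31), and for IGFBP3 they were LRP5 (0.18), BGN (0.20) and MATN2 (0.28). PTPRN2 averaged 0.0349 CPM in knockout cells with LY500307 and 0 CPM in knockout cells with vehicle, against 9.98 CPM in control cells with LY500307 and 12.1 CPM in control cells with vehicle. BGN, the matrix proteoglycan biglycan, averaged 1.86 CPM in knockout cells with LY500307 and 1.70 CPM in knockout cells with vehicle, against 57.9 CPM in control cells with LY500307 and 48.4 CPM in control cells with vehicle. LRP5, a WNT coreceptor, averaged 0.398 CPM in knockout cells with LY500307 and 0.370 CPM in knockout cells with vehicle, against 12.1 CPM in control cells with LY500307 and 9.77 CPM in control cells with vehicle.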

How the data were processed

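Whole-number counts per gene symbol were deposited by the authors, whose tools, per the submitters' processing notes, were HTSeq, TopHat2 2.0.8b and bcl2fastq with the hg19 build. The series text speaks of merged runs ahead of alignment, but each library has a file of its own, and duplicates were further apart than sampling noise (chi-square over degrees of freedom, 3.05 to 4.30). Summary entries of the counter were set aside: 10.7% to 12.8% of unique reads fell outside genes. Columns of samples left unused numbered 0.

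Of 23228 genes, filterByExpr kept 13498, among them 8 of the 10 described. edgeR 4.0.16 (R 4.3.3, limma 3.58.1) was fitted with TMM scaling to all 8 libraries as 4 group means, and glmQLFTest was run two-sided at 0.05 after Benjamini-Hochberg adjustment across all of them. The biological coefficient of variation was 3.95%. Alternatives were library totals, DESeq2 1.42.0 size factors and Wald test, no filter, only the groups compared, a replicate block, glmTreat at a fold of 1.5 and each library left out. The procedure was tested on simulated data.

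CPM scale the counts to the TMM-adjusted library total. Positions and transcript lengths are from GENCODE 44 lifted to hg19 (19137 genes matched by symbol, 2175 by older symbol). Members and lists were chosen with earlier results of these data known. From each list up to 4 genes with the smallest p were named; PTPRN2, PNMA2, CHRNA1, LRP5, BGN and MATN2 came from the rule of closest levels.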

Additional observations from a re-analysis of the deposited data

Results flagged for a closer look

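Of the list of FOXO targets, 2 genes responded to LY500307 by different amounts in knockout and control cells in the interaction test of edgeR. KLHL24, a substrate adaptor of a ubiquitin ligase, rose less in knockout cells (0.43) than in control cells (0.97), with an interaction of -0.54 on the log2 scale (edgeR Benjamini-Hochberg adjusted p = 0.043). With each of the 8 libraries left out in turn the interaction of KLHL24 lay between -0.64 and -0.45 and the call was kept in 2 fits, and DESeq2 gave an adjusted p of 0.082. TXNIP, an inhibitor of glucose uptake and of thioredoxin, rose more in knockout cells (0.56) than in control cells (0.20), with an interaction of 0.36 (edgeR Benjamini-Hochberg adjusted p = 0.00883). With vehicle TXNIP was lower in knockout than in control cells (-0.46, log2). For TXNIP the values with 1 library left out lay between 0.30 and 0.42 with the call kept in 5 of 8 fits, and DESeq2 gave an adjusted p of 0.00997.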

How the results depend on the processing

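No called value of the 8 tested genes changed sign under any alternative run. Values without a call did: LY500307 in knockout cells for IGFBP3 (-0.47 to 0.36) and IGFBP7 (-2.29 to 3.10), LY500307 in control cells for IGFBP7 (-0.11 to 0.08), knockout cells with vehicle against control cells with LY500307 for IGF2R (-0.02 to 0.03), and the interaction for IGFBP7 (-2.28 to 3.11) and IRS2 (-0.04 to 0.12; all log2). The calls between knockout and control cells were the same with library totals, DESeq2 size factors, the DESeq2 Wald test, no filter and only the groups compared in each treatment. Tested against a fold of 1.5 (glmTreat), the genes called numbered 2229 with vehicle and 2370 with LY500307 between knockout and control cells, 13 for LY500307 in knockout cells, 28 for LY500307 in control cells, 2694 for both factors together, 2386 for knockout cells with vehicle against control cells with LY500307 and 0 for the interaction. Of the 8 genes described, glmTreat called 4 of 6 with vehicle and 5 of 7 with LY500307 between knockout and control cells, ending the IGF1R (adjusted p = 0.182) and IRS1 (1.0) calls with vehicle and the IRS1 and IGF2R calls with LY500307 (both 1.0), 5 for both factors together, 4 for knockout cells with vehicle against control cells with LY500307, and 0 for LY500307 in either population, where 1 in knockout cells and 0 in control cells had an unadjusted p under 0.05. DESeq2 called 3 of them for LY500307 in control cells. Library totals turned the split of calls for LY500307 in knockout cells to 2288 higher and 953 lower, against 1237 and 1522 with TMM, in control cells to 2831 and 1011, against 1665 and 1885, and for both factors together to 5473 and 3823, against 4467 and 4702, and ended the IRS1 call in control cells (-0.06, edgeR adjusted p = 0.387); DESeq2 size factors, the DESeq2 Wald test and no filter gave adjusted p of 0.0526, 0.0618 and 0.0714 for IRS1 there.

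With each library left out in turn, the members called were 6 in every fit with vehicle (7596 to 8813 genes) and 7 with LY500307 (7915 to 9015) between knockout and control cells, 3 to 4 for LY500307 in knockout cells (1422 to 2736), 2 to 4 in control cells (2160 to 3810), 8 for both factors together (8291 to 9183), 6 to 7 for knockout cells with vehicle against control cells with LY500307 (7908 to 9157) and 0 for the interaction (95 to 262). In control cells the lowest numbers, 2 or 3, came from leaving out any of the 4 libraries compared, and in knockout cells the 1422 genes came without replicate 2 with vehicle. The interaction count over all genes, 218, was 350 without the filter. Replicate numbers are not shown to pair the libraries (correlations of deviations 0.000614 to 0.07); a replicate block gave 643 genes for the interaction and added IGF2R in the knockout comparison with vehicle (edgeR adjusted p = 0.0247) and for LY500307 in control cells (0.0346), and it changed no other call of these genes. Duplicates limit each group to 2 libraries, and INSR and IGFBP5 are below what this depth can compare.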
